A study of Rattus norvegicus with 36 samples.

Results

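The genes examined here encode the proteasome of the rat heart: the subunits of its core and regulatory particles, the proteins that assemble them and the activators that open the core. Members were the array probes whose single gene symbol starts with Psma, Psmb, Psmc, Psmd, Psme, Psmf or Psmg and a digit, apart from the immunoproteasome genes Psmb8, Psmb9 and Psmb10. The rule found 40 probes, and 39 of them, for 39 genes, had a detection score of at least 0.95 on 7 or more arrays, out of 10956 detected probes in all. Each of 36 hearts was measured on 1 array, and the rats were male Wistar Kyoto rats of the Control litters, born to sham-operated mothers and left at normal litter size, so the groups shared strain, sex and maternal surgery. The groups were 7 later exercise rats (trained on a treadmill in weeks 20 to 24 and killed at 24 weeks of age), 8 early exercise rats killed at 24 weeks after training in weeks 5 to 9, 7 sedentary rats killed at 24 weeks, 7 early exercise rats killed at 9 weeks at the end of training, and 7 sedentary rats killed at 9 weeks. The whole heart was crushed, so fewer cells of a type and less RNA per cell cannot be told apart, and since more than 1 male of a litter could be used in the study, the rats of different groups may include littermates.

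The proteasome is the main machine for controlled protein breakdown in the cytosol and nucleus. Its core is a barrel of stacked alpha and beta rings, and the beta subunits Psmb5, Psmb6 and Psmb7 carry the peptide-cutting sites. A regulatory particle of ATPases, other base subunits and a lid binds proteins marked with ubiquitin, removes the ubiquitin, unfolds the protein and feeds it into the barrel. In heart and skeletal muscle this route clears worn and misfolded sarcomere proteins, and many of its genes are under shared control by transcription factors that respond to proteasome or oxidative stress.

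By role the 39 members were 7 alpha ring genes, 8 beta ring genes, 6 ATPases, 3 base subunits without ATPase activity, 7 lid subunits, 4 assembly chaperones, 3 activators and 1 gene that is not a subunit, Psmc3ip, which takes its symbol from a protein it binds and is known for its part in meiotic recombination. Of these, 35 were detected on all 36 arrays. The exceptions were Psmc6 on 32, Psma3 on 31, Psmd8 on 23 and Psmb11, the thymus form of a catalytic subunit, on 11, and fold changes of these dim probes are compressed toward 0. Psma8, an alpha subunit of the testis, was detected on 0 arrays and took no part. No probe used here carries the symbol Psmd14, Psmf1, Psme3, Psmd10, Psmg3 or Psmg4. In the reference annotation 16 members share their name with a pseudogene or like locus, with 10 such loci for Psmb3 and 5 for Psma6, and whether a probe also reads those loci was not tested.

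All values are log2 intensities, quantile normalized between arrays, and compare a probe with itself across hearts, not with another probe. Cardiomyocyte markers had a mean of 12.74 to 13.41 over the later exercise and sedentary hearts of 24 weeks. This mean is over the detected probes, which read 8 of the 9 listed genes. The later exercise arrays were dim before normalization, their mean raw signal lying between 315 and 709, whereas that of the sedentary arrays of 24 weeks lay between 715 and 1307. The correlation between arrays ran from 0.964 to 0.996. Averaged over the 39 members, the normalized level was 10.91 to 11.03 in later exercise, 10.90 to 11.03 in early exercise and 10.90 to 10.995 in sedentary hearts at 24 weeks, and 10.88 to 10.96 in early exercise and 10.89 to 10.95 in sedentary hearts at 9 weeks. These ranges overlapped throughout.

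Later exercise was the comparison in which proteasome genes passed the test most often. Against sedentary hearts of 24 weeks Psmg2, Psmb5 and Psme2 rose by 1.22 to 1.29-fold, and Psme4 fell to 0.719-fold. These were 4 of 39 members at a limma adjusted p below 0.05 (3 higher and 1 lower), or 10.3%, where 12.4% of all detected probes passed (4.59% higher and 7.79% lower), so the share was near the background. The median log2 fold change of the members was 0.04, with 23 above and 16 below 0, against -0.01 for all probes. With arrays scaled to a common median in place of quantile normalization, 13 of 39 members passed (12 higher and 1 lower). Of all 10956 probes 16.5% passed under that scaling (656 higher and 1152 lower). Only Psmb5 of these 4 genes was among the 13, and the median was 0.28 against -0.06 for all probes. Under that scaling the differences were 0.78 for Psmb5, 0.14 for Psmg2 (adjusted p = 0.488), 0.27 for Psme2 (0.134) and -0.31 for Psme4 (0.138). At an unadjusted p below 0.05 there were 8 of 39, against 26.2% of all probes. For 22 of 39 the 95% interval of the fold change lay within a 25% change (below a rise of 25% and above 0.8-fold), against 39% of all probes.

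**Figure D1:**
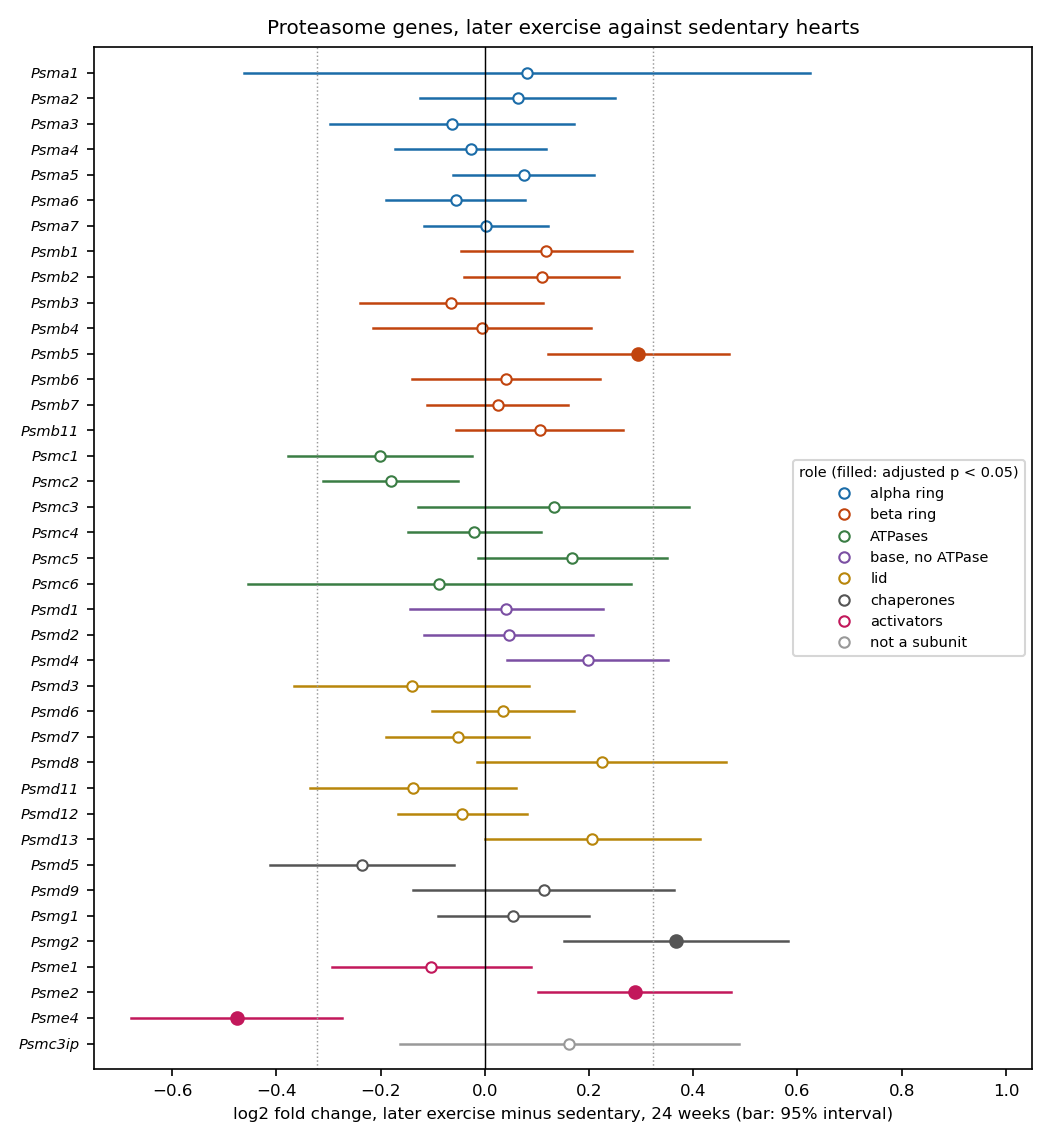
Log2 fold change of each of the 39 proteasome genes in later exercise over sedentary hearts at 24 weeks (x axis, log2 units), grouped by role down the page; bars are 95% intervals from the limma fit, dotted lines mark a rise of 25% and 0.8-fold, and filled points passed an adjusted p of 0.05. Psmg2, Psmb5 and Psme2 lie to the right and Psme4 to the left, while most other intervals cross 0.

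In the beta ring, the catalytic subunit Psmb5, which carries the chymotrypsin-like site, was the member that passed. Its lowest, median and highest log2 values were 12.60, 12.82 and 13.01 in later exercise hearts, 12.45, 12.70 and 12.98 in early exercise hearts of 24 weeks, and 12.29, 12.49 and 12.75 in sedentary hearts of 24 weeks. The groups overlapped, with later exercise highest and early exercise between. The difference of later exercise from sedentary was 0.29 (SE 0.086, fold 1.23, limma adjusted p = 0.0203), and it was 0.18, 0.18 and 0.50 on chips 1, 2 and 3. The other catalytic subunits did not pass. Psmb6, of the caspase-like site, ran from 11.89 to 12.38 (median 12.03) in later exercise and from 11.88 to 12.13 (median 11.98) in sedentary hearts, and Psmb7, of the trypsin-like site, ran from 12.57 to 12.86 (median 12.76) and from 12.52 to 12.81 (median 12.67) in the same groups. Their differences were 0.04 and 0.02, and the 5 other beta ring genes lay between -0.06 and 0.12. Of 8 beta ring genes 6 were above 0, and the median was 0.07.

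The alpha ring forms the gate of the core, and 0 of its 7 genes passed. Their log2 fold changes ran only from -0.06 to 0.08, with 4 above 0 and a median of 0.00, and for 6 of 7 the interval lay within a 25% change. The exception was Psma1, whose spread between hearts is described below.

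Among the ATPases, which unfold the substrate, 0 of 6 passed and 4 were below 0. Psmc2 came nearest, with 12.04 to 12.17 (median 12.10) in later exercise and 12.17 to 12.51 (median 12.26) in sedentary hearts. The later exercise values were closely spaced, all but the highest of them below every sedentary heart, and the difference of -0.18 missed the threshold (limma adjusted p = 0.0571). For Psmc1 the difference was -0.20 (adjusted p = 0.129), and for Psmc5 it was 0.17 (adjusted p = 0.229). The remaining members of the regulatory particle had 0 of 10 past the threshold. Psmd4, a subunit that binds ubiquitin chains, had 11.85, 11.99 and 12.22 in later exercise hearts, 11.74, 11.89 and 12.04 in early exercise hearts and 11.69, 11.81 and 11.93 in sedentary hearts of 24 weeks (lowest, median and highest). Later exercise values sat at the upper end and overlapped the others, and the difference of 0.20 from sedentary did not pass (SE 0.076, adjusted p = 0.0836). The scaffold subunits Psmd1 and Psmd2 differed by 0.04 and 0.05. The 7 lid subunits, which carry and hold the deubiquitinating enzyme, ran from -0.14 for Psmd3 to 0.22 for the dim probe of Psmd8.

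The chaperones and activators moved in both directions. Psmg2, a chaperone that pairs with Psmg1 to build the alpha ring, had 8.13, 8.74 and 8.79 in later exercise hearts, 8.21, 8.47 and 8.91 in early exercise hearts of 24 weeks, and 7.85, 8.28 and 8.37 in sedentary hearts (lowest, median and highest). Most later exercise hearts were above every sedentary heart, but the lowest was not. The difference was 0.37 (SE 0.11, fold 1.29, adjusted p = 0.0192), and 0.56, 0.47 and 0.09 on chips 1, 2 and 3. Its partner Psmg1 differed by 0.05. Psmd5, a chaperone of the base, had 8.00 to 8.70 (median 8.25) in later exercise and 8.35 to 8.76 (median 8.50) in sedentary hearts, a difference of -0.24 that missed the threshold (adjusted p = 0.0700).

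Psme4, the large activator that caps the core without ATP and is known for the breakdown of acetylated histones, was the member with the smallest p. It had 10.82, 10.97 and 11.29 in later exercise hearts, 10.81, 11.21 and 11.51 in early exercise hearts of 24 weeks, and 11.03, 11.54 and 11.67 in sedentary hearts (lowest, median and highest). All sedentary hearts but 1 lay above every later exercise heart. The difference of later exercise from sedentary was -0.48 (SE 0.10, 95% interval of the fold 0.625 to 0.828, adjusted p = 0.00183), and it was -0.55, -0.33 and -0.61 on chips 1, 2 and 3. Psme1 and Psme2 form the other activator, which interferon induces and which is linked to antigen presentation, and of the pair only Psme2 passed, a contrast between them that was not tested. Psme2 had 10.02 to 10.54 (median 10.17) in later exercise and 9.83 to 10.06 (median 9.95) in sedentary hearts, a difference of 0.29 (SE 0.092, adjusted p = 0.0338) with 0.26, 0.30 and 0.30 on the chips. Psme1 had 13.87 to 14.18 (median 13.96) against 13.84 to 14.77 (median 14.004), with 1 sedentary heart far above the rest, and differed by -0.10, a sign that turned with arrays scaled to a common median.

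**Figure D2:**
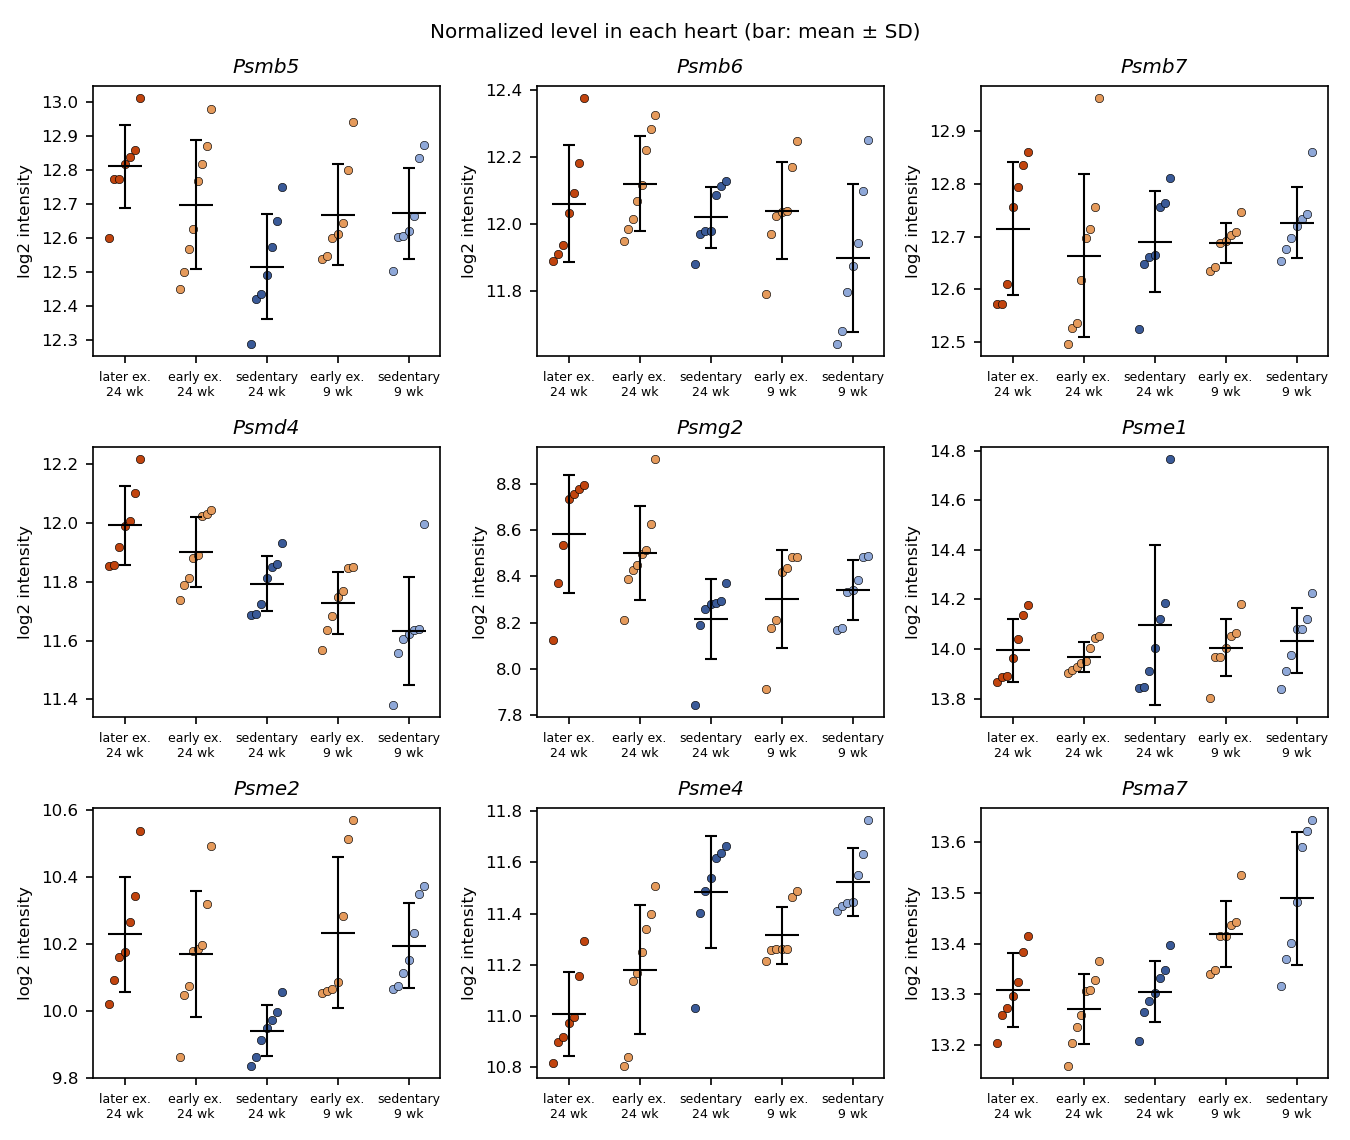
Normalized log2 intensity (y axis) of 9 proteasome genes in every heart of the 5 groups (x axis); each point is 1 rat, sorted within its group, and bars are the mean ± SD. Psmb5, Psmg2 and Psme2 are shifted upward and Psme4 downward in later exercise against sedentary hearts of 24 weeks, with overlap in every panel between these groups.

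Array brightness and the probes of very long transcripts moved with this comparison. Beside the dim later exercise arrays, 9 of 19 probes of very long transcripts were lower in later exercise (median -0.38), where 7.79% of all probes were. Of 58 cytosolic ribosomal protein probes 4 were higher (median 0.07), a share near the 4.59% of all probes. With array brightness as a covariate 0 of 39 members passed, as did 1.31% of all probes, and with a length score (the long-transcript mean minus the ribosomal mean) 0 of 39 passed, as did 2.03% of all probes. The signs of the 4 genes were the same under both. The mean raw signal of later exercise arrays did not overlap that of sedentary arrays of 24 weeks. Brightness and later exercise thus cannot be told apart between these groups. With brightness the differences were -0.32 for Psme4 (adjusted p = 0.153), 0.33 for Psmg2 (0.175), 0.26 for Psmb5 (0.190) and 0.26 for Psme2 (0.224). With the length score they were -0.43 for Psme4 (adjusted p = 0.0808), 0.26 for Psmg2 (0.298), 0.21 for Psmb5 (0.296) and 0.12 for Psme2 (0.570). Leaving out 1 heart at a time, Psme4 passed in all 14 fits (adjusted p = 0.000270 to 0.00630). Psmg2 was lost without sedentary replicate 1 (adjusted p = 0.0513), and Psmb5 without later exercise replicate 5 (0.0545) or sedentary replicate 7 (0.0585). Psme2 was lost without later exercise replicate 1, 4 or 5 or sedentary replicate 3, 6 or 7 (adjusted p of up to 0.0986).

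The 35 members with an entry in the RefSeq promoter table (GRCr8) were searched for sequence features on a window of 250 bases before to 50 bases after the start site. Psma7, Psmb11, Psmd6 and Psmd12 had none. The core of the antioxidant response element, TGACNNNGC on either strand, which the regulators Nfe2l1 and Nfe2l2 bind, was in 8 of 35 windows (22.9%), where 12.1% of 33469 windows of all genes held it. The CCAAT box, bound by the NF-Y complex, was in 16 of 35 (45.7%), against 37.5% of all windows. These are matches of letters, given with no test. The windows of the 4 genes that passed in later exercise are printed here, 5′ to 3′ on the strand of the gene, with the response element core in capitals, and only Psmb5 and Psme4 held it.
Psmb5: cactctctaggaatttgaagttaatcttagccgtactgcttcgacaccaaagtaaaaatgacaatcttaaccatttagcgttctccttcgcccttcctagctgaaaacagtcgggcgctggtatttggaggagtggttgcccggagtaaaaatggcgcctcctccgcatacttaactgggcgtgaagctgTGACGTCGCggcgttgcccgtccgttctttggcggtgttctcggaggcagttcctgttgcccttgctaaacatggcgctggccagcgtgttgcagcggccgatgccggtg
Psme4: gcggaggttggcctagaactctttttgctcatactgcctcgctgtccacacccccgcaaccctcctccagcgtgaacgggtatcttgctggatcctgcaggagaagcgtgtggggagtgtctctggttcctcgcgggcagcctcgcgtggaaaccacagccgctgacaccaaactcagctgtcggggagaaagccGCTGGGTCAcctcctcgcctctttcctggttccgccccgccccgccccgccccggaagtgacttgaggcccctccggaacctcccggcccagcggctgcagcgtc
Psmg2: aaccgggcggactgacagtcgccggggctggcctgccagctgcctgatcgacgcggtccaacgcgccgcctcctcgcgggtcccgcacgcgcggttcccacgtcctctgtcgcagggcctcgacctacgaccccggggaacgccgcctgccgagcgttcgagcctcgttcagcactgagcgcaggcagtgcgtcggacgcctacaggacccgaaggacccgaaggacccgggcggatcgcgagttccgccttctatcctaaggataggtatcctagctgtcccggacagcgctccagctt
Psme2: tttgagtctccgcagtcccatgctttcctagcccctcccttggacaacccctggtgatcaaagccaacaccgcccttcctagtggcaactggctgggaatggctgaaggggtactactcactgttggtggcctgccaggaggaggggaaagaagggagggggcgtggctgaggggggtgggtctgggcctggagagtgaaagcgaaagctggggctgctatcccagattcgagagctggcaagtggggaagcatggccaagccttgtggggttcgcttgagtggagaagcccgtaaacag
The windows lie at chr15:32047330-32047629 (minus strand) for Psmb5, chr14:108706393-108706692 (plus strand) for Psme4, chr18:63478370-63478669 (plus strand) for Psmg2, chr15:33052702-33053001 (minus strand) for Psme2. The match in Psmb5 begins 60 bases before the start site, and the one in Psme4, on the opposite strand, begins 55 bases before it. Psmb5 rose and Psme4 fell, and whether the match bears on either change was not tested. The other 6 members with the core are shown by the 29 bases around their first match, to compare the variable letters within it.
Psmb6: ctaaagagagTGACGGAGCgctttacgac
Psmb2: cccgcgccaaTGACCGGGCggtcgcatat
Psma3: tctgtggcctGCCGGGTCAgcaccatgag
Psmd1: accagatctaTGACCTCGCgagaattata
Psmd3: gtttgcagctGCTCGGTCAtcgtgcggcc
Psmd9: acttagctctGCCGGGTCAtctgaaaacc
They lie at chr10:55737854-55737882 (plus strand) for Psmb6, chr5:144254980-144255008 (plus strand) for Psmb2, chr6:95219727-95219755 (plus strand) for Psma3, chr9:94157796-94157824 (plus strand) for Psmd1, chr10:84139941-84139969 (plus strand) for Psmd3, chr12:39018370-39018398 (minus strand) for Psmd9. In Psmb2 the core overlaps a CCAAT box by its first letter. Psmd1 and Psmd9 each held 2 matches. In later exercise these 6 genes had log2 fold changes of 0.04 (Psmb6), 0.11 (Psmb2), -0.06 (Psma3), 0.04 (Psmd1), -0.14 (Psmd3), 0.11 (Psmd9), and 0 of 6 passed.

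Early exercise hearts of 24 weeks, long after training had stopped, were compared with the same sedentary hearts, to ask whether an early effect remained. No member passed (0 of 39), and 0% of all detected probes did. At an unadjusted p below 0.05 there were 6 of 39 members, against 10.4% of all probes. Psme4 had the smallest p, with a difference of -0.30 (SE 0.097, adjusted p = 0.234). Psmg2 differed by 0.28 (adjusted p = 0.286), Psme2 by 0.23 (adjusted p = 0.329) and Psmc1 by -0.19 (adjusted p = 0.404), the last of which was above 0 with arrays scaled to a common median. As the sedentary hearts are shared, their own values enter both comparisons, so the likeness of these values to those of later exercise is not independent. The median of the members was 0.00, and for 28 of 39 the interval lay within a 25% change, against 54.7% of all probes.

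Set directly against each other, later and early exercise hearts of 24 weeks did not differ in any member at the threshold (0 of 39, against 0.438% of all probes). An unadjusted p below 0.05 was reached by 4 of 39, against 12.2% of all probes, and the 95% interval lay within a 25% change for 27 of 39, against 52.6%. The smallest p values were those of Psmd8 (0.26, adjusted p = 0.338), Psmd1 (0.20, adjusted p = 0.349), Psmd5 (-0.18, adjusted p = 0.386) and Psme4 (-0.17, adjusted p = 0.481), apart from that of Psmb11 (0.17, adjusted p = 0.362). The probes of Psmd8, a lid subunit, and of Psmb11 were both dim. Psmd1 had 11.30 to 11.79 (median 11.41) in later exercise and 11.08 to 11.51 (median 11.28) in early exercise hearts, with overlap over much of the range.

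At 9 weeks, at the end of early training, no member passed (0 of 39, and 0% of all probes), and 4 of 39 had an unadjusted p below 0.05, against 7.92% of all probes. Psmd9, a chaperone of the base, was the member with the smallest p. It had 8.49, 8.67 and 8.77 in early exercise hearts, against 7.71, 8.31 and 8.51 in sedentary hearts (lowest, median and highest). The early exercise values were closely spaced, and all but the lowest were above every sedentary heart. The difference was 0.38 (SE 0.12, fold 1.30, unadjusted p = 0.00355, adjusted p = 0.466). Psma5 differed by 0.13 (adjusted p = 0.633), Psmd1 by -0.24 (adjusted p = 0.515) and Psma4 by -0.15 (adjusted p = 0.618), and the last 2 were above 0 with arrays scaled to a common median, which moved the median of all probes to 0.11. Among the genes that passed in later exercise, Psmb5 had 12.54 to 12.94 (median 12.61) in early exercise against 12.50 to 12.87 (median 12.62) in sedentary hearts, and Psmg2 had 7.91 to 8.48 (median 8.42) against 8.17 to 8.49 (median 8.34). Psme2 had 10.05 to 10.57 (median 10.09) against 10.06 to 10.37 (median 10.15). Psme4 had 11.21 to 11.49 (median 11.26) in early exercise against 11.41 to 11.76 (median 11.44) in sedentary hearts, with a difference of -0.21 (adjusted p = 0.618). For 32 of 39 members the interval lay within a 25% change, against 53.5% of all probes.

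Whether training late in life differed in effect from training early was tested as the later response at 24 weeks minus the early response at 9 weeks. Again 0 of 39 members passed, where 0.146% of all probes did, and 4 of 39 had an unadjusted p below 0.05, against 13.1%. The difference of responses was 0.40 for Psmg2 (adjusted p = 0.247), 0.30 for Psmb5 (adjusted p = 0.291), -0.27 for Psme4 (adjusted p = 0.422) and -0.21 for Psmd5 (adjusted p = 0.465). The intervals of these differences were wide, and for 14 of 39 members they lay within a 25% change, against 16.2% of all probes.

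**Figure D3:**
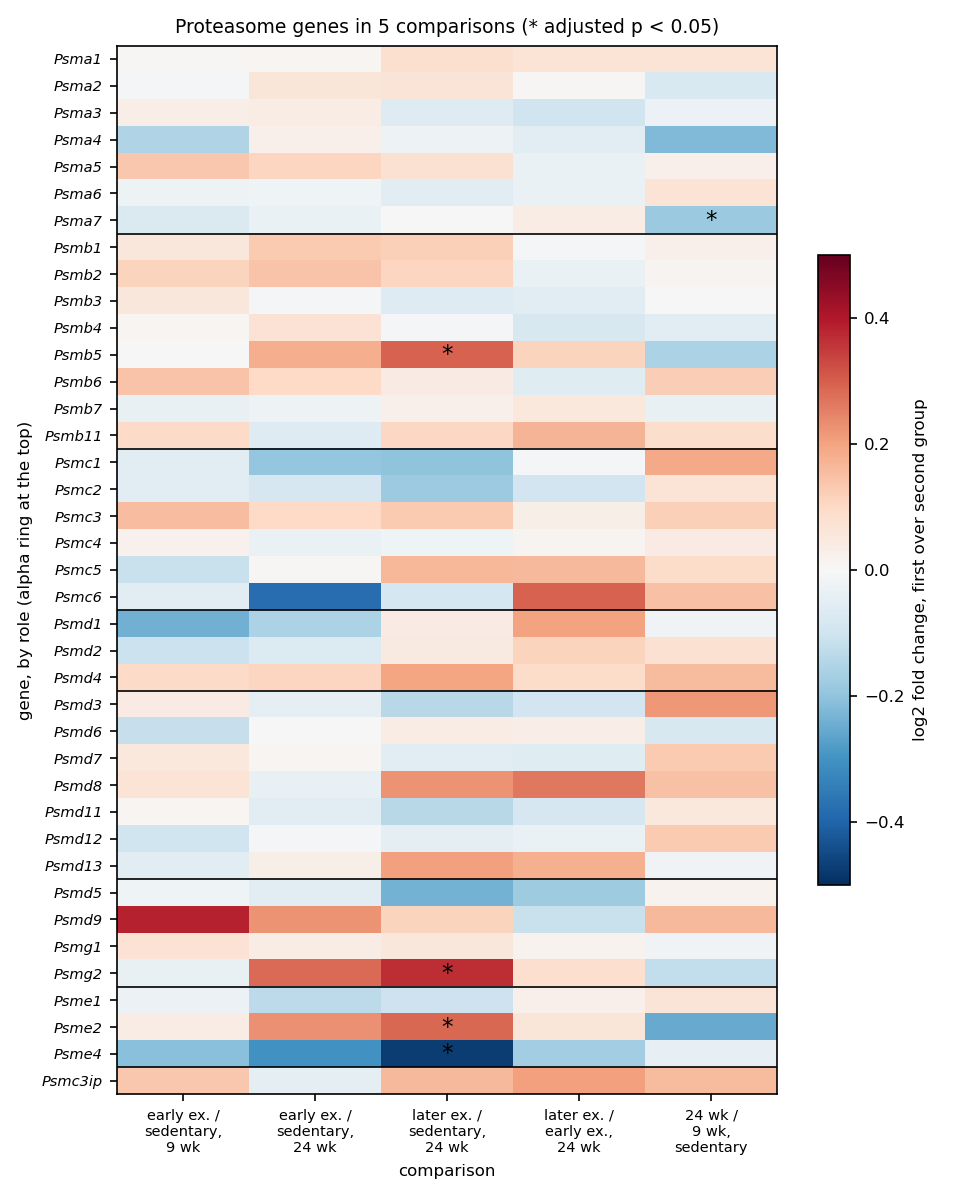
Log2 fold change (colour, red for higher in the first group) of the 39 proteasome genes, down the page by role, in 5 comparisons across the page; stars mark an adjusted p below 0.05. The 4 stars of later exercise over sedentary are Psmb5, Psmg2, Psme2 and Psme4, and the star of age is Psma7.

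Age was compared in sedentary hearts, 24 weeks against 9 weeks. A single member passed (1 of 39, or 2.56%), and it was lower, against 6.56% of all probes (3.48% higher and 3.09% lower). At an unadjusted p below 0.05 there were 6 of 39, against 19.4%, and for 27 of 39 the interval lay within a 25% change, against 45.3%. Psma7, an alpha ring subunit, had 13.21, 13.30 and 13.40 at 24 weeks and 13.32, 13.48 and 13.64 at 9 weeks (lowest, median and highest). The groups overlapped, and the difference of 24 from 9 weeks was -0.18 on the log2 scale (SE 0.058, fold 0.880, adjusted p = 0.0489). The difference was -0.06, -0.36 and -0.05 on chips 1, 2 and 3, and the call was lost in a fit of only the groups compared (adjusted p = 0.140) and in 10 of 14 fits that left out 1 heart (4 hearts of 9 weeks and 6 of 24 weeks), with an adjusted p of up to 0.132. Psma4, another alpha ring subunit, differed by -0.22 (adjusted p = 0.0548). Of all probes 381 were higher and 338 lower with age. With arrays scaled to a common median these were 62 and 638, the median was -0.21 for the members (0.04 with quantile normalization) and -0.12 for all probes, and the members past the threshold were Psma4 and Psme2, both lower.

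Psme2 was the only member whose groups did not overlap in this comparison, as was so for 2.24% of all probes. It had 9.83 to 10.055 (median 9.95) at 24 weeks and 10.065 to 10.37 (median 10.15) at 9 weeks, a difference of -0.25 (SE 0.092, adjusted p = 0.0917). The sedentary hearts of 24 weeks were thus the low group for Psme2 both here and beside later exercise. These same hearts enter both comparisons, so the differences are not independent. All 6 ATPases were above 0 (0.04 to 0.19) with 0 of 6 past the threshold, and the catalytic subunits Psmb5, Psmb6 and Psmb7 differed by -0.16, 0.12 and -0.04. For Psmd4 the difference was 0.16 (adjusted p = 0.237) and for Psme4 it was -0.04. Fibroblast markers moved with age, with 5 of 6 lower at 24 weeks and a mean of 11.10 to 11.38 at 24 weeks against 11.95 to 12.21 at 9 weeks, and their part in the proteasome values was not tested.

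**Figure D4:**
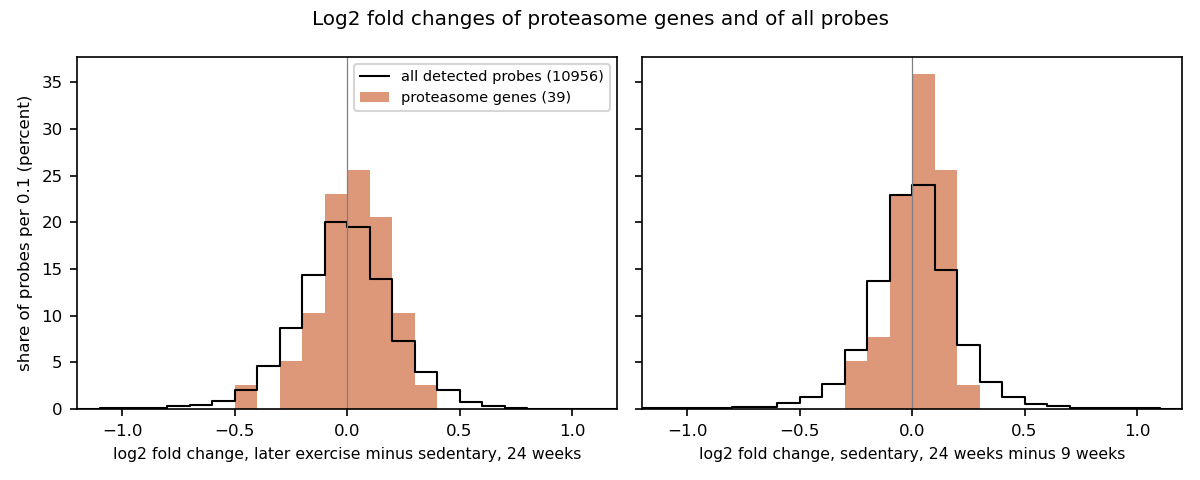
Share of probes (y axis, percent) per 0.1 of log2 fold change (x axis) for the 39 proteasome genes (bars) and all detected probes (line), for later exercise minus sedentary at 24 weeks (left) and sedentary at 24 minus 9 weeks (right). The proteasome genes lie around 0, with medians of 0.04 in both panels; scaling the arrays to a common median put them at 0.28 (left) and -0.21 (right).

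The immunoproteasome genes, whose beta subunits replace the catalytic subunits in immune cells and under interferon, were read by 4 probes for 3 genes. In later exercise against sedentary hearts all 4 were above 0 (0.20 to 0.61), and 1 probe of Psmb10 passed (4.59% of all probes were higher), with 9.16 to 9.81 (median 9.62) in later exercise and 8.55 to 9.31 (median 8.93) in sedentary hearts (difference 0.61, fold 1.53, adjusted p = 0.00224). The second Psmb10 probe, with 11.17 to 11.81 (median 11.66) against 11.19 to 11.55 (median 11.34), was also above 0 but did not pass, and the difference between the probes was not tested. With age all 4 were below 0 (-0.47 to -0.27), and 0 of 4 passed. The same sedentary hearts of 24 weeks enter both comparisons, so these opposite signs are not independent. Macrophage markers had a mean of 8.92 to 9.24 in later exercise and 8.72 to 9.05 in sedentary hearts of 24 weeks, with all 5 probes above 0 and 1 of 5 past the threshold (C1qb, 0.52, adjusted p = 0.0213). Their part in the values of Psme2 and Psmb10 was not tested.

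Genes that work with the proteasome were taken from lists chosen with earlier results known. In later exercise 12.4% of all probes passed, but 1.31% did with array brightness as a covariate and 2.03% with the length score. The genes of these lists, and Psmb10 and C1qb, were not examined under those settings. Of 8 probes for partners without a Psm symbol, 2 fell in later exercise, where 7.79% of all probes fell. Zfand5, which binds the proteasome and raises its activity in muscle wasting, had 11.46 to 11.92 (median 11.54) in later exercise and 11.95 to 12.21 (median 12.10) in sedentary hearts, a difference of -0.43 (adjusted p = 0.000537). Usp14, a deubiquitinating enzyme of the base, had 11.88 to 12.26 (median 12.05) against 12.29 to 12.56 (median 12.35), a difference of -0.32 (adjusted p = 0.00187). The groups did not overlap in either gene, as for 1.44% of all probes. All 39 members had overlapping groups, which is near the share over all probes.

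Of 9 probes for delivery factors, 2 fell in later exercise (7.79% of all probes did), and both are ubiquilins, which shuttle ubiquitin-marked proteins to the proteasome. Ubqln2 had 10.32 to 10.59 (median 10.48) in later exercise and 10.68 to 11.12 (median 10.92) in sedentary hearts, a difference of -0.46 (adjusted p = 4.34e-05). Ubqln1 differed by -0.38 (adjusted p = 0.000975). None of 6 regulators of proteasome genes passed in later exercise, and the smallest p was that of Nfyc, a part of NF-Y (0.24, adjusted p = 0.216). With age Nfyc was lower (-0.44, adjusted p = 0.0210), the only 1 of 6, where 3.09% of all probes were lower.

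Of 7 probes for ubiquitin ligases of muscle, 1 fell in later exercise, against 7.79% of all probes. It was Fbxo30, known from muscle atrophy, with 7.01 to 7.72 (median 7.35) in later exercise and 7.41 to 8.05 (median 7.93) in sedentary hearts (difference -0.46, adjusted p = 0.0169). With age 1 rose, against 3.48% of all probes. It was Trim54, a ligase of the sarcomere, with 12.43 to 12.82 (median 12.61) at 24 weeks and 11.81 to 12.39 (median 12.02) at 9 weeks (difference 0.57, adjusted p = 9.57e-05). The single probe for ubiquitin and its activation, Uba6, did not pass in later exercise (-0.37, adjusted p = 0.0835). In early exercise at 9 and at 24 weeks and between later and early exercise, 0 probes of these lists passed.

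The median within-group SD of the members was 0.157 on the log2 scale, against 0.154 for the cytosolic ribosomal protein probes and 0.204 for all detected probes. Brighter probes vary less, so among probes with a mean log2 value above 11 the medians were 0.136 for 26 members and 0.159 for 1394 probes in all. Psma7 had the smallest SD (0.0838) and Psma1 the largest (0.541).

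Psma1 varied widely within every group. Its lowest, median and highest values were 8.16, 8.82 and 10.24 in later exercise, 8.28, 9.04 and 9.80 in early exercise and 8.63, 8.86 and 9.89 in sedentary hearts of 24 weeks, and 8.61, 8.87 and 9.64 in early exercise and 8.65, 8.86 and 9.72 in sedentary hearts of 9 weeks. Each group thus held hearts near 9 and hearts well above it. After group means were removed, Psma1 went with the mean of the ribosomal protein probes (r = 0.75 over 36 arrays) and less with the log2 mean raw signal (r = 0.43).

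The members did not vary together as a block. Over 741 pairs the median correlation within groups was 0.01, with quartiles of -0.21 and 0.23, against a median of 0.00 for all detected probes, 0.09 for the ribosomal protein probes and 0.21 for the very long transcripts. The highest correlation was that of Psmd3 and Psmd11, both of the lid (r = 0.83), and the next were between roles: Psmc1 with Psmd11 (r = 0.80), Psmb1 with Psmd3 (r = 0.80) and Psma2 with Psmb4 (r = 0.77). Of the catalytic subunits, Psmb5 and Psmb7 had r = 0.67, while Psmb6 had r = -0.06 with Psmb5 and r = 0.09 with Psmb7. The lowest correlation was that of Psmc1 and Psma1 (r = -0.81). Psma1 also went against Psmb4 (r = -0.80) and Psmd11 (r = -0.76). Over the 39 members the correlation with the ribosomal mean ran from -0.68 for Psmc1 to 0.75 for Psma1, with 10 above 0.3 and 9 below -0.3. These correlations are over the 36 arrays, which share their chips and their normalization.

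**Figure D5:**
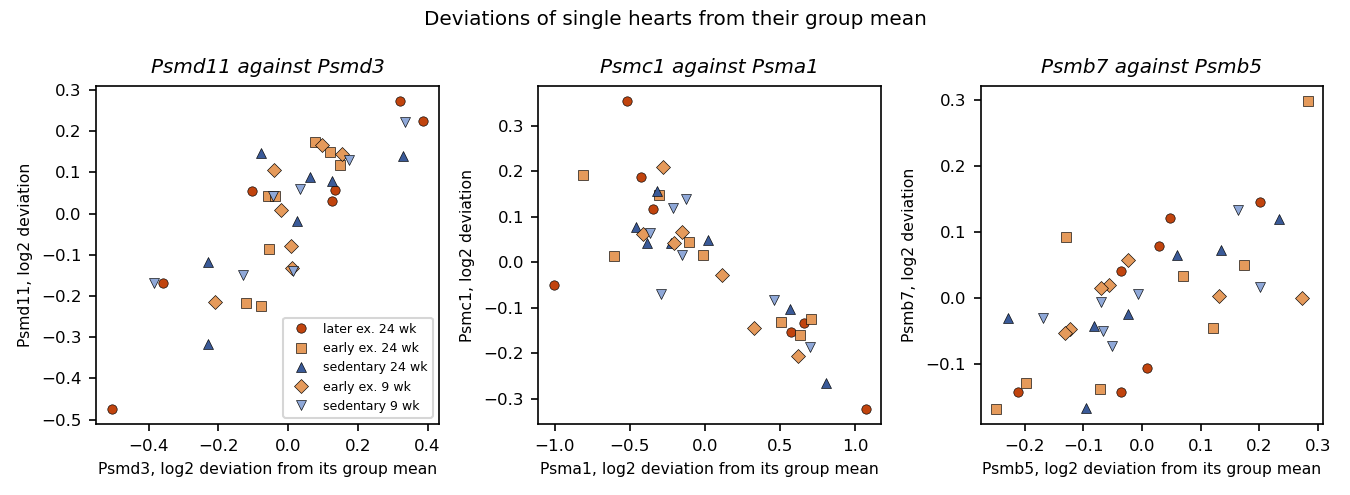
Deviation of each of 36 hearts from its group mean (log2 units) for 3 pairs of proteasome genes (the highest correlation, the lowest, and a pair of catalytic subunits), with 1 marker shape per group. Psmd11 rises with Psmd3 (r = 0.83), Psmc1 falls as Psma1 rises (r = -0.81) and Psmb7 rises with Psmb5 (r = 0.67), in hearts of all groups.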

How the data were processed

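RNA of the whole heart of 36 rats was hybridized to Illumina rat beadchips. For 22523 probes the authors deposited the raw intensity from the scanner, with no correction, and beside it a detection score. Its heading calls it a p-value, yet it grows with the intensity, so 1 minus the detection p was taken as its meaning. The deposited normalized table holds log2 values, which the submitters' notes tie to R 3.2.2 and limma 3.24.15. It differed by at most 0.0417 from normexp background correction, an offset of 16 and quantile normalization of the deposited intensities. The methods of the study describe another transformation and an analysis of variance, with an unadjusted p of 0.05 and fold limits of 0.75 and 1.25, which was an alternative here.

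The deposited log2 values of the 10956 detected probes were fitted in R 4.3.3 with limma 3.58.1 as 1 linear model of the 5 groups over all 36 arrays, moderated by empirical Bayes, and p was adjusted by Benjamini-Hochberg over all probes of each of 6 comparisons. The fit was run on simulated data with independent noise and added changes larger than any member showed. Changes as small as those of the members were not covered. SE, p and intervals are those of the linear model above. They rest on the spread between rats within groups, pooled over all 5 groups and moderated toward that of all probes. Possible littermates were not modelled. Probes were named by the platform annotation (13793 with 1 symbol, 8730 with none). Chip is that of the labels, and each of the 3 chips held all groups. With 36 arrays, 3 chips hold more than the 6 arrays per beadchip that the methods of the study describe, and this was not resolved. Genes named in full were the catalytic subunits, Psmd4, the activators, the members past an adjusted p of 0.05 and, in comparisons with none, the 2 of smallest p in each direction. Psma1 and the pairs of genes were singled out after their values were seen, as were Psmc2, Psmd5, Psmc1 and Psmc5 in later exercise. The members and lists were chosen with earlier results of these data known. Alternatives were values recomputed from the raw signal, scaling of the arrays to a common median, omission of the background correction or of the detection filter, a chip block or a replicate block, a fit of only the compared groups, a plain analysis of variance, brightness or a length score as a covariate, and hearts left out. The number of arrays limits the precision.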

Additional observations from a re-analysis of the deposited data

Results flagged for a closer look

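In each of 5 groups the highest or lowest heart of every member was compared with the range of its group. Of 195 such groups 9 had a heart far from the others, where about 1 in 20 (9.75) is what chance gives. In sedentary hearts of 24 weeks, Psme4 had a lowest value of 11.03 (the next was 11.40), Psmg2 of 7.85 (8.19) and Psmd9 of 7.88 (8.35), and Psme1 had a highest value of 14.77 (14.19). The low values of Psmg2 and Psmd9 belonged to sedentary replicate 1. In later exercise hearts, the lowest value of Psma5 was 11.70 (the next was 11.95). In early exercise hearts of 9 weeks, the highest value of Psmc6 was 7.02 (6.34). In sedentary hearts of 9 weeks, Psmd4 had a highest value of 11.996 (the next was 11.64) and Psmb7 of 12.86 (12.74), both in replicate 6, and Psmc5 had a lowest value of 11.38 (11.84). No member's responses to later and early training differed at an adjusted p of 0.05.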

How the results depend on the processing

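In later exercise against sedentary hearts, 4 of 39 members passed, where 12.4% of all probes did. Scaling to a common median gave 13 (16.5% of all probes), chip as a block 6 (17.2%) and no background correction 5 (13%). Without the detection filter 5 of 40 passed (4.91%). Leaving out later exercise replicates 3 and 5 gave 3 (8.02%), and only the groups compared gave 1 (Psme4, 5.39%). The plain analysis of variance with the methods' limits gave 2 (Psme4 and Psmg2, 8.62%). Brightness as a covariate gave 0 (1.31%), as did the length score (2.03%). Leaving out 1 heart gave 2 to 6. Scaling put the median of the members at 0.28 there, at 0.31 for early exercise at 9 weeks, 0.24 for early exercise at 24 weeks, 0.071 for later against early exercise and -0.21 for age. For age, 1 member passed, where 6.56% of all probes did. No background correction (7.08% of all probes), scaling (6.39%) and the length score (8.68%) each gave 2. Chip as a block gave 3 (Psma4, Psma7 and Psmc1, 9.55%). Only the groups compared gave 1 that was not Psma7 (Psme2, 7.01%), and the plain analysis of variance gave 0 (6.97%). Leaving out 1 heart gave 0 to 2. The plain analysis of variance called 1 member at 9 weeks (Psmd9), with 1.19% of all probes. In the difference of responses it called 1 (Psmg2), with 6.42% of all probes, and scaling called 1 (Psmd9), with 6.17%. The median of that difference of responses was 0.053 with brightness and -0.042 with the length score. Without 1 heart the median ran from 0.0047 to 0.054 in later exercise and from -0.030 to 0.037 for the difference of responses.

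Signs turned under scaling for Psmd1 (0.031) and Psma4 (0.16) at 9 weeks, for Psmc1 in early exercise at 24 weeks (0.14) and for Psme1 in later exercise (0.83, adjusted p = 0.00548). In later exercise they also turned for Psme1 with brightness (0.11) and without 1 heart (-0.14 to 0.0091, the highest without sedentary replicate 4), for Psmb6 with the length score (-0.18) and without 1 heart (-0.012 to 0.069, the lowest without later exercise replicate 4), and for Psmb7 with the length score (-0.010) and without 1 heart (-0.0030 to 0.048, the lowest without sedentary replicate 6). Replicate numbers showed no clear pairing of the hearts in their correlations. Over 7 pairs the correlation of deviations ran from -0.27 to 0.36 in later exercise and from -0.34 to 0.30 for age. At most 2 pairs of 7 correlated best with their own number in any comparison. With the replicate block, 4 members passed in later exercise and 0 for age (Psma7, adjusted p = 0.0533), and over all probes 1510 in place of 1356 and 850 in place of 719. Over all probes that block also gave 198 in place of 48 for later against early exercise. It gave 52 in place of 16 for the difference of responses, and 4 in place of 0 for early exercise at 24 weeks. For the dim probes of Psmb11, Psmd8, Psma3 and Psmc6 the signal over background limits what could be seen, and the cause of these changes was not tested.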
